A study of Homo sapiens with 6 samples.

Results

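The antisense RNA genes of OVCAR3 cells were described here, that is, the genes that the authors' comparison table types as antisense RNA. They number 2193 of the 27104 genes in the table. OVCAR3 is an established human ovarian cancer cell line, here at passages 20 to 25. It was transfected either with a vector labelled DAB2IP O/E (3 libraries) or with an empty vector (3 libraries). The labels state transfection in triplicate without saying if each library had its own culture. The p-values therefore cover the spread between libraries, part of which may be technical. Each antisense RNA gene was set beside a partner, the protein-coding gene with the longest overlap on the opposite strand, or otherwise an overlapping or the nearest protein-coding gene.

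The level of DAB2IP, which encodes a RAS GTPase-activating protein, went against the label. It was 5.74, 5.02 and 5.73 FPKM (fragments per kilobase of exon, scaled to library depth) in the libraries labelled DAB2IP O/E, against 7.49, 7.76 and 8.01 FPKM in the empty vector libraries. The groups did not overlap, and the log2 change was -0.43 (SE 0.06, limma adjusted p = 0.00548). Every direction below is therefore that of the libraries labelled DAB2IP O/E against the empty vector libraries and says nothing of a rise in DAB2IP. Depth was 24743563 to 35434533 reads in the libraries labelled DAB2IP O/E and 20445867 to 28116259 reads in the empty vector libraries. All 6 ovarian epithelial cancer markers (PAX8, WT1, MUC16, EPCAM, KRT8, KRT18) were at 1 FPKM or more, with sums of 867 to 892 FPKM in DAB2IP O/E and 609 to 652 FPKM in empty vector. The extraction label names adipocytes. Of 6 adipocyte markers, 3 were in the table and none reached 1 FPKM, with sums of at most 0.139 FPKM in DAB2IP O/E and 0.170 FPKM in empty vector. A single fibroblast and a single leukocyte marker reached 1 FPKM, with list sums of 1.99 to 2.48 and 1.13 to 1.81 FPKM in DAB2IP O/E, against 1.93 to 2.33 and 1.44 to 1.93 FPKM in empty vector. No endothelial marker did.

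An antisense RNA is transcribed from the strand opposite another gene. Some start from the same promoter as their partner and run the other way, some lie inside the partner, and some meet it tail to tail. A few are known regulators, such as HOTAIR, which binds chromatin-silencing complexes, and KCNQ1OT1, which silences neighbouring genes on the paternal chromosome, while for most no function is established. They are generally spliced, polyadenylated and weakly expressed.

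In 9 pairs the starts lie within 1 kb of each other on opposite strands and both genes passed the test described below. The 4 windows below, from RefSeq (GRCh38.p14), hold both annotated starts of a pair. They are shown because a single stretch holds the annotated starts of 2 genes that moved together. Starts are the outer ends of the genes in the authors' comparison table, and other start sites are not marked. The partner's marked start is base 13, 228, 160 and 272 of the TFPI2, WAPL, WT1 and MAFG windows. The windows are thus not placed at a fixed distance from it. Each window is written 5' to 3' on the partner's strand, and capitals mark the bases between and including the 2 starts.
TFPI2: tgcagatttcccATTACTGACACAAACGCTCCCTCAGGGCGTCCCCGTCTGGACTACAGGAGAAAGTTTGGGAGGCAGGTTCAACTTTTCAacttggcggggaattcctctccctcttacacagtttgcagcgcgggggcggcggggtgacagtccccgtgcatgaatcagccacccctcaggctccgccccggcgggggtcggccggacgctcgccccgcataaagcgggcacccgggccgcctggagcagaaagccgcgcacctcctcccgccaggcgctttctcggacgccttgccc
WAPL: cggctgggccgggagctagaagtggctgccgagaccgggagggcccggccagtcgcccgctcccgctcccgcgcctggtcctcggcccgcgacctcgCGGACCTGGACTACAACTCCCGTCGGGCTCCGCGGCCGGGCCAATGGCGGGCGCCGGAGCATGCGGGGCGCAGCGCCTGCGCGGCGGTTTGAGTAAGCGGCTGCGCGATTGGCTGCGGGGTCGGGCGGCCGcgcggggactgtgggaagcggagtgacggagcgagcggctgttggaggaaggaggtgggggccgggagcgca
WT1: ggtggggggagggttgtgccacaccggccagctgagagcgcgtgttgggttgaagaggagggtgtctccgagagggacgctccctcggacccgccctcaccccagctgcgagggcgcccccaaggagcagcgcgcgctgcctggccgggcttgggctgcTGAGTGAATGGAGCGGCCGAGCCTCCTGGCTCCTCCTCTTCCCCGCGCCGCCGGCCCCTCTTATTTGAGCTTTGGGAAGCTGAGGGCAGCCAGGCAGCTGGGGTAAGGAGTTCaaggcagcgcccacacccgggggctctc
MAFG: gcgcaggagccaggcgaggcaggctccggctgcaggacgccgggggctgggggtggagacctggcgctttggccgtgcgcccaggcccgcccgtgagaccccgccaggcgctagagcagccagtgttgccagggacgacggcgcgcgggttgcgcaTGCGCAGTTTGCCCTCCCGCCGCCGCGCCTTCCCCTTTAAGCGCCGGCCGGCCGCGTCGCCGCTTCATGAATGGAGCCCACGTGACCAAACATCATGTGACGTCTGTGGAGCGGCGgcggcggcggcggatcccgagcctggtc

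The TFPI2 window (chr7:93890704-93891003, minus strand) holds the starts of TFPI2 and AC002076.1, 78 bases apart, with the annotated genes overlapping. The WAPL window (chr10:86521743-86522042, minus strand) holds those of WAPL and AL731569.1, 130 bases apart and without overlap. The WT1 window (chr11:32435490-32435789, minus strand) holds those of WT1 and WT1-AS, which are 112 bases apart and overlap. The MAFG window (chr17:81927686-81927985, minus strand) holds those of MAFG and MAFG-AS1, 115 bases apart and without overlap. All 4 are rich in the dinucleotide CG, with 26, 44, 21 and 39 occurrences in TFPI2, WAPL, WT1 and MAFG, against a median of 14 in 27305 RefSeq promoters of the same length. GGGCGG, the box bound by Sp-family factors, occurred 2 times at TFPI2 and 1 time each at WAPL, WT1 and MAFG, over both strands, and 44.6% of all promoters hold it. GCATGCG, a motif bound by NRF1, occurred 1 time at WAPL, and 2 times at MAFG on opposite strands of overlapping bases. That motif was in 4.13% of all promoters. CCAAT occurred 2 times at WAPL and is held by 35.7% of all promoters. Neither CCGGAA (17.6% of promoters) nor TATAAA (12%) was found in any of the 4 windows, and no other motifs overlapped. Among 99 tested antisense RNA genes with their own RefSeq promoter, the median CG count was 24, and GGGCGG was in 63.6%, CCAAT in 37.4%, CCGGAA in 18.2%, TATAAA in 7.07% and GCATGCG in 7.07%.

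Antisense RNA genes were low. Their median level was 0.263 FPKM (quartiles 0.0989 and 0.724), against 3.84 FPKM in protein-coding and 0.244 FPKM in intergenic long noncoding RNA genes. Of the 2193, 410 (18.7%) averaged at least 1 FPKM over the 6 libraries and were tested, 1783 fell below that level, and 19 averaged 10 FPKM or more. Reads were present in all 6 libraries for 1514. No read was found in any DAB2IP O/E library for 23 and in any empty vector library for 9, and none of these had more than 13 reads in the other group. The median antisense RNA gene stood at 5.01% of its partner's FPKM, and 267 (12.2%) stood above it.

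The layout varied. An opposite-strand protein-coding gene was overlapped by 1810 members, and 528 started within 1 kb of an opposite-strand partner's start. Of all 2193, 822 lay inside the partner, 533 overlapped it head to head and 388 tail to tail, 228 diverged without overlap, 105 had a nearest partner on the same strand, 67 spanned the partner and 50 converged on it. Median levels by layout ran from 0.193 FPKM in converging to 0.341 FPKM in spanning members. The library kit marks the strand, per the labels, but whether counting used it is not given in the sources used here, so reads of a member and of the gene opposite cannot be told apart where exons are shared.

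There were 109 members lying wholly within their partner's exons, over 108 partners. Whether their signal is antisense RNA or partner reads cannot be told apart. Their summed reads were 0.20%, 0.182% and 0.160% of their partners' in DAB2IP O/E, against 0.524%, 0.404% and 0.214% in empty vector (exact permutation test over samples, 2-sided p = 0.1, the smallest that 3 against 3 libraries can give). Empty vector libraries 1 and 2 stood apart, and library 3 was close to the DAB2IP O/E libraries. AC006064.4, inside the exons of GAPDH (glycolysis), stood at 1.60%, 0.993% and 0.899% of GAPDH in DAB2IP O/E, against 5.67%, 4.19% and 1.40% in empty vector. AL138963.3, inside TPT1 (translationally controlled tumour protein), stood at 3.71%, 3.26% and 1.83% of TPT1 in DAB2IP O/E, against 21.3%, 15.1% and 4.63% in empty vector. In both, library 3 was the lowest of the empty vector libraries, and for GAPDH it lay within the DAB2IP O/E range. Antisense RNA genes not wholly within partner exons took 0.378%, 0.380% and 0.384% of reads in DAB2IP O/E, against 0.425%, 0.434% and 0.411% in empty vector, with no overlap between the groups.

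**Figure D1:**
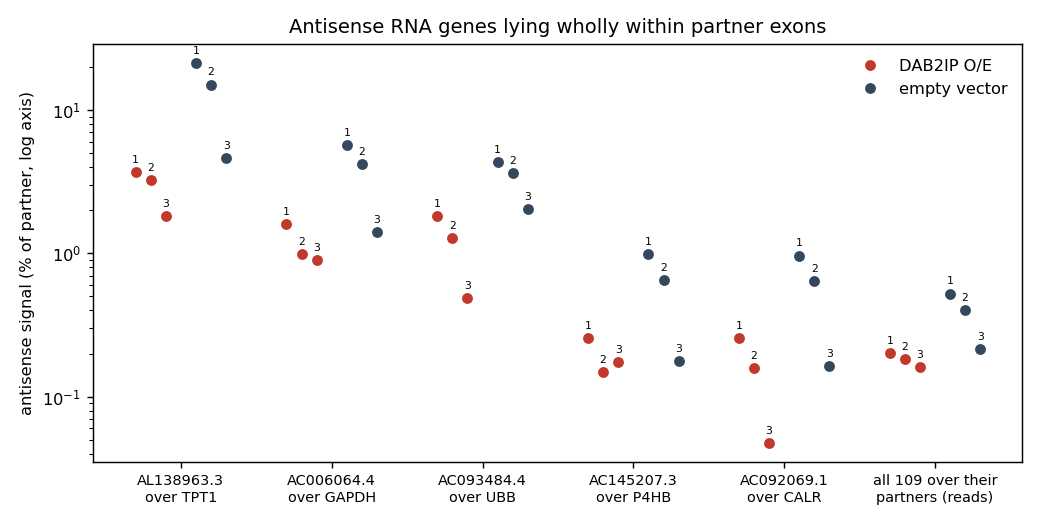
Signal of antisense RNA genes that lie wholly within partner exons, as a percentage of the partner (log axis), with one point per library numbered 1 to 3 and DAB2IP O/E left of empty vector. For the first 5 genes the percentage is of FPKM and for all 109 it is of reads. Empty vector libraries 1 and 2 lie above the other 4 libraries in each column.

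More antisense RNA genes fell than rose. Of the 410 tested, 85 (20.7%) passed a limma adjusted p of 0.05, 14 higher and 71 lower in DAB2IP O/E than in empty vector. Over all 14761 genes tested, 18.5% passed, 9.29% higher and 9.17% lower. In this fit the share of members called was thus near that of all genes. The direction differed, with 3.41% of members higher and 17.3% lower. In a limma-voom fit on reads recovered from the FPKM, 16.8% of members were called, below the 22.6% of all genes. The median log2 change on the scale of log2(FPKM + 1), which understates the change of low genes, was -0.10 over tested members and -0.00 over all genes. In 32 members all 3 DAB2IP O/E values lay above all 3 empty vector values, and in 123 below, while the groups were separated in 40.4% of all genes. Less RNA per cell and fewer cells that make it cannot be told apart in these bulk libraries. With 1 library left out, the number of members that passed fell in each fit except that without empty vector library 3, where it rose. The count was 43 without DAB2IP O/E library 1, 50 without DAB2IP O/E library 2, 36 without DAB2IP O/E library 3, 59 without empty vector library 1, 42 without empty vector library 2 and 91 without empty vector library 3. Each of these 6 fits kept more members lower than higher, with at most 14 higher and at least 34 lower. These counts were 8.65% to 22.5% of the members tested, and in the same fits 6.48% to 18.5% of all genes passed. Without both empty vector libraries 1 and 2, 9 members passed, 1 higher and 8 lower, as did 393 of 14755 genes. That fit sets 3 libraries against 1, which is assumed to vary like the DAB2IP O/E libraries.

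The tilt was present in members that share no annotated exon base with an opposite-strand gene. Of 117 such members tested, 4 were higher and 26 lower (median -0.14). Of 50 whose body meets no annotated gene on the opposite strand, 2 were higher and 14 lower (median -0.20). Of 33 with over 75% of exon bases shared, 1 was higher and 5 were lower. The members with no opposite gene body took 0.0248%, 0.0245% and 0.0261% of reads in DAB2IP O/E, against 0.0308%, 0.0322% and 0.0304% in empty vector, and here empty vector library 3 lay with the other empty vector libraries. Single-block members counted 1 higher and 17 lower of 98, and spliced ones 12 higher and 53 lower of 292.

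Other gene types are given for comparison, with no test of the difference between types. Protein-coding genes counted 1152 higher and 1099 lower of 11291, and intergenic long noncoding RNA genes 26 higher and 40 lower of 327. Sense intronic RNA genes, which lie within introns on the host's own strand, counted 1 higher and 13 lower of 74. Genes typed as miscellaneous RNA counted 1 higher and 9 lower of 58, and small nucleolar RNA genes 1 higher and 5 lower of 137. Processed pseudogenes ran the other way, with 136 higher and 60 lower of 1654. All antisense RNA genes together took 0.381%, 0.383% and 0.386% of reads in DAB2IP O/E, against 0.433%, 0.440% and 0.414% in empty vector (exact permutation test, 2-sided p = 0.1, the smallest possible). Intergenic long noncoding RNA genes took 0.553%, 0.541% and 0.598% in DAB2IP O/E, against 0.693%, 0.681% and 0.619% in empty vector (exact permutation test, p = 0.1). Sense intronic RNA genes took 0.0437%, 0.0453% and 0.0469% in DAB2IP O/E, against 0.0510%, 0.0520% and 0.0512% in empty vector (exact permutation test, p = 0.1). Lower read shares in DAB2IP O/E were thus found in all 3 types.

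**Figure D2:**
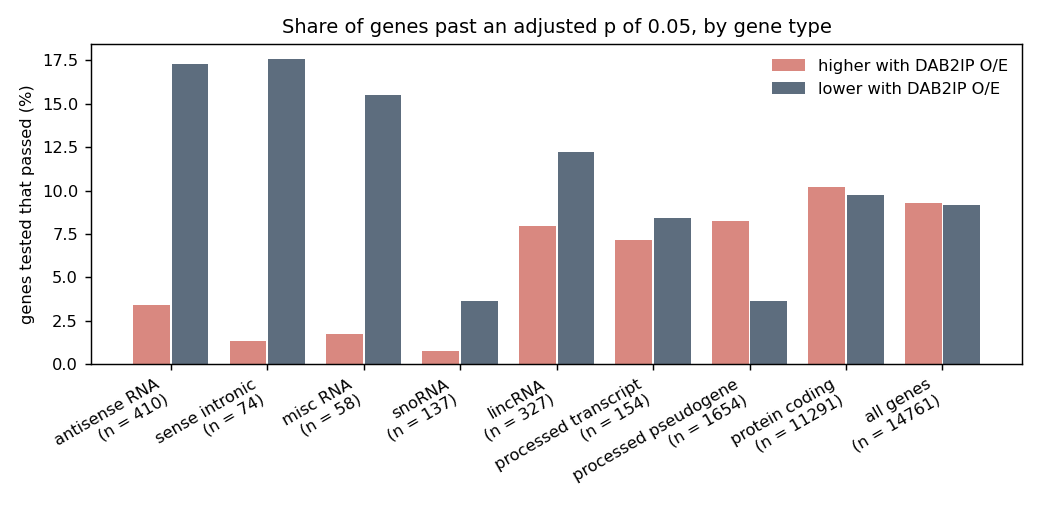
Percentage of tested genes of each type past an adjusted p of 0.05 (limma), higher (left bar) or lower (right bar) in DAB2IP O/E than in empty vector, with the number tested under each type. The lower bar stands well above the higher one in antisense RNA, sense intronic RNA and miscellaneous RNA genes, and above it in small nucleolar and intergenic long noncoding RNA genes.

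Antisense RNA genes of the HOX clusters fell. HOX genes encode the transcription factors that set position along the body axis, and their clusters carry many antisense transcripts. Of 18 listed, 12 were in the table as antisense RNA genes, 4 were tested and all 4 were lower (median -0.47, against -0.10 over all tested members). The share lower was 17.3% over tested members and 9.17% over all genes. In the limma-voom fit on reads recovered from the FPKM, which reaches lower genes, 10 were tested and 8 were lower, where 9.74% of all 19022 genes were lower. None was higher in either fit.

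The HOXA cluster held the highest. HOXA-AS2 (chr7:27107777-27134302, plus strand, inside the annotated span of HOXA3) was at 6.03, 5.79 and 6.33 FPKM in DAB2IP O/E, against 8.87, 9.56 and 8.69 FPKM in empty vector. The groups lay far apart for their spread, with a log2 change of -0.51 (SE 0.06, limma adjusted p = 0.00238). HOXA3 itself changed by -0.21 and did not pass (adjusted p = 0.0508), and the difference of -0.30 between the pair did (limma adjusted p = 0.0227). HOXA-AS3, which overlaps the start of HOXA3 (chr7:27129977-27155928, plus strand), was at 0.825, 0.754 and 0.912 FPKM in DAB2IP O/E, against 1.47, 1.60 and 1.35 FPKM in empty vector (log2 change -0.43, limma adjusted p = 0.0107). Again no DAB2IP O/E library reached the lowest empty vector library. HOXA10-AS (chr7:27168619-27171915, plus strand, opposite HOXA9) was at 3.19, 2.87 and 3.19 FPKM in DAB2IP O/E, against 4.33, 4.93 and 5.31 FPKM in empty vector (log2 change -0.52, limma adjusted p = 0.00605). HOXA9 fell with it by 0.60 on the log2 scale (limma adjusted p = 0.00338). HOXA10-AS shares 62.3% of its exon bases with genes on the opposite strand, HOXA-AS3 39.3% and HOXA-AS2 11.9%. HOTAIRM1 (chr7:27095647-27100265, plus strand), first known from myeloid cells, was the highest of the HOX members at 14.1, 13.8 and 13.9 FPKM in DAB2IP O/E, against 16.5, 17.5 and 16.2 FPKM in empty vector. Its change was smaller, at -0.25 (limma adjusted p = 0.0131), and did not pass without DAB2IP O/E library 3 (adjusted p = 0.0617) or empty vector library 2 (adjusted p = 0.0563).

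**Figure D3:**
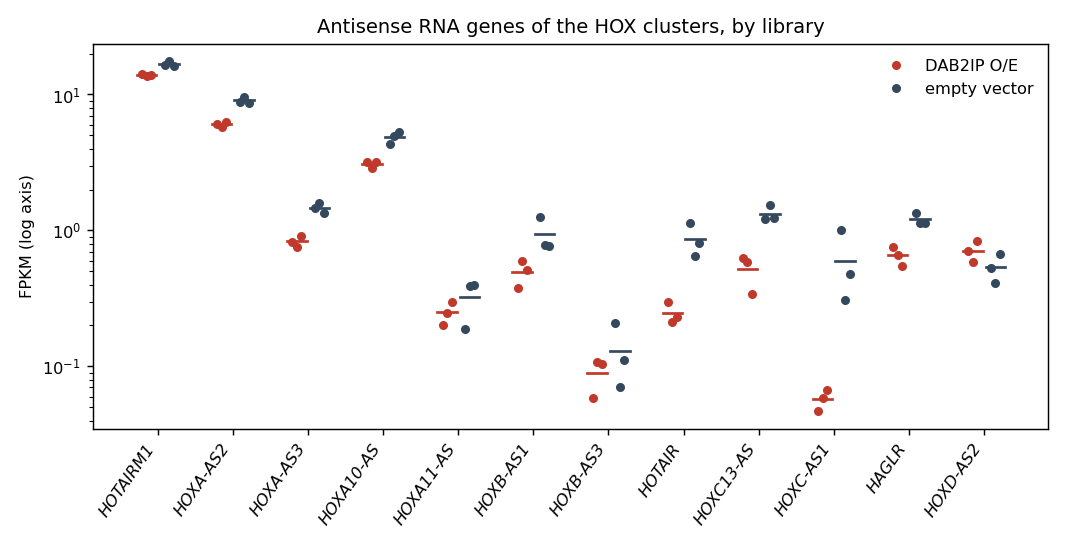
FPKM (log axis) of the 12 antisense RNA genes of the HOX clusters in each library, DAB2IP O/E left of empty vector, with the group mean as a line. HOTAIR lies at 0.213 to 0.299 FPKM in DAB2IP O/E and 0.645 to 1.14 FPKM in empty vector, and HOXD-AS2 is the member whose mean is higher in DAB2IP O/E, with overlapping groups.

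Members of the HOXC and HOXD clusters were below 1 FPKM or close to it, and their reads are given. HOTAIR (chr12:53962308-53974956, minus strand), transcribed opposite HOXC11, had 28, 16 and 15 reads in DAB2IP O/E, against 59, 37 and 60 reads in empty vector. Scaled to depth, the groups did not overlap, and the limma-voom log2 change was -1.71 (adjusted p = 0.000525). HOXC11 changed by -1.60 in the same fit (adjusted p = 0.00311), on 10, 10 and 15 reads in DAB2IP O/E and 23, 21 and 41 in empty vector. HOXC13-AS (chr12:53935328-53939643, minus strand) had 32, 24 and 12 reads in DAB2IP O/E, against 34, 48 and 49 in empty vector (limma-voom log2 change -1.31, adjusted p = 0.00276). Its head-to-head partner HOXC13 stood at 1.63, 1.34 and 1.48 FPKM in DAB2IP O/E, against 3.62, 3.54 and 3.58 FPKM in empty vector. That is a log2 change of -0.88 (limma adjusted p = 0.0005). HOXC-AS1 had 1 read in each DAB2IP O/E library, against 12, 4 and 8 reads in empty vector, too few to test. HAGLR, also known as HOXD-AS1 (chr2:176173195-176188958, minus strand), had 132, 93 and 67 reads in DAB2IP O/E, against 131, 122 and 156 in empty vector (limma-voom log2 change -0.84, adjusted p = 0.00121). HOXB-AS1 changed by -0.88 (limma-voom adjusted p = 0.0336). HOXD-AS2 at 0.38 (adjusted p = 0.344) and HOXA11-AS at -0.37 (adjusted p = 0.448) did not pass in that fit, and HOXB-AS3, with 3 to 8 reads a library, was not tested.

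Antisense RNA genes at EMX2, WT1 and GATA2 fell with their partners. EMX2OS (chr10:117473215-117545068, minus strand) overlaps the start of EMX2, a homeobox factor of the urogenital tract. It was at 18.9, 18.8 and 17.1 FPKM in DAB2IP O/E, against 25.7, 28.0 and 26.2 FPKM in empty vector, or 18.3 ± 0.997 against 26.7 ± 1.22 FPKM (SD, n = 3 each; limma log2 change -0.52, adjusted p = 0.00229). EMX2 was at 38.4, 37.9 and 37.9 FPKM in DAB2IP O/E, against 44.5, 45.1 and 43.1 FPKM in empty vector (log2 change -0.21, limma adjusted p = 0.0147). Both fell without overlap, the antisense RNA by more, and the difference of -0.31 passed (limma adjusted p = 0.0214). WT1-AS, at the promoter printed above, was at 2.86, 2.39 and 2.65 FPKM in DAB2IP O/E, against 4.58, 3.79 and 3.65 FPKM in empty vector (log2 change -0.46, limma adjusted p = 0.0143). WT1, a zinc finger factor and marker of serous ovarian cancer, was at 17.4, 17.8 and 18.9 FPKM in DAB2IP O/E, against 26.2, 23.9 and 25.0 FPKM in empty vector (log2 change -0.45, limma adjusted p = 0.00295). The pair moved by nearly the same amount, with a difference of -0.01 (SE 0.09, adjusted p = 0.948). WT1-AS did not pass without DAB2IP O/E library 3 (adjusted p = 0.0555). GATA2-AS1, named after its values were seen, fell by 0.62 on the log2 scale (limma adjusted p = 0.00697). Its mean was 0.766 FPKM in DAB2IP O/E and 1.71 FPKM in empty vector. Its partner GATA2, a zinc finger factor, fell by 0.56 (limma adjusted p = 0.00275). In limma-voom GATA2-AS1 changed by -1.16 and GATA2 by -0.99.

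Of 17 listed antisense RNAs at developmental transcription factor loci, 6 were members, 2 were tested and 1 (EMX2OS) was lower. The share lower was 17.3% over tested members and 9.17% over all genes. FOXD3-AS1, at the locus of a neural crest factor, was at 1.40 to 1.77 FPKM in DAB2IP O/E and 1.80 to 2.53 FPKM in empty vector, and did not pass (log2 change -0.29, limma adjusted p = 0.0930). In the limma-voom fit 4 were tested and 2 were lower, with DLX6-AS1 the other (log2 change -0.27, adjusted p = 0.0429). That fit had 13.9% of tested members and 9.74% of all genes lower. ZEB1-AS1 did not pass there (log2 change -0.20, adjusted p = 0.533), and FEZF1-AS1 and MEIS1-AS3 had at most 4 reads in any library.

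Of 6 listed at imprinted loci, 3 were members. WT1-AS was the 1 tested. KCNQ1OT1 (chr11:2608328-2699994, minus strand), inside the potassium channel gene KCNQ1, had 161, 143 and 151 reads in DAB2IP O/E, against 137, 169 and 263 in empty vector. Scaled to depth these groups were separated, and the limma-voom log2 change was -0.64 (adjusted p = 0.00739). KCNQ1 moved the other way, with 30, 19 and 25 reads in DAB2IP O/E, against 3, 3 and 4 in empty vector (limma-voom log2 change 2.36, adjusted p = 0.000539). GNAS-AS1 did not pass (limma-voom log2 change -0.47, adjusted p = 0.326).

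Of 17 antisense RNAs much studied in cancer, 9 were members, 6 were tested and 1 was lower, with a median of 0.06. Beside this, 17.3% of tested members and 9.17% of all genes were lower, and 6 genes are too few to compare. TMPO-AS1 was at 1.81, 1.84 and 2.05 FPKM in DAB2IP O/E, against 2.81, 2.85 and 2.48 FPKM in empty vector (log2 change -0.36, limma adjusted p = 0.0154). It did not pass without DAB2IP O/E library 1 (adjusted p = 0.0563) or empty vector library 2 (adjusted p = 0.0611). The partner TMPO, a nuclear lamina protein, changed by -0.19 (adjusted p = 0.103). ZFAS1, a host of small nucleolar RNAs, was at 45.7, 50.5 and 47.9 FPKM in DAB2IP O/E, against 39.3, 46.3 and 42.7 FPKM in empty vector, with overlap, and did not pass (log2 change 0.17, limma adjusted p = 0.137). FGD5-AS1 (-0.04), MCM3AP-AS1 (-0.07), BDNF-AS (0.20) and BACE1-AS (0.20) did not pass. CDKN2B-AS1, opposite the cell cycle inhibitor CDKN2B, had a limma-voom log2 change of -0.08 (adjusted p = 0.784), and GAS6-AS1 and TTN-AS1 did not pass in that fit.

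The 6 most abundant antisense RNA genes included ZFAS1 and FGD5-AS1. AD000090.1 was the highest, at 126, 126 and 137 FPKM in DAB2IP O/E, against 89.6, 98.8 and 119 FPKM in empty vector. The groups were separated, yet the change of 0.35 missed the threshold (limma adjusted p = 0.0532). The call varied with the fit. It was made in limma-voom (adjusted p = 0.0124) and in the authors' deposited table (adjusted p = 0.0032). It was missed with a filter of 0.2 FPKM (limma adjusted p = 0.0698) and with equal library medians (limma adjusted p = 0.0627). AC099329.1 (-0.08) and TUG1 (-0.10), a conserved long noncoding RNA that diverges from MORC2, did not pass. AC068768.1 was the member of the 6 that passed in the limma fit on FPKM. It was at 22.0, 23.7 and 23.4 FPKM in DAB2IP O/E, against 28.8, 31.6 and 30.3 FPKM in empty vector (log2 change -0.38, limma adjusted p = 0.00487).

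Of 123 tested pairs with starts within 1 kb on opposite strands, the antisense RNA gene passed in 33 and the partner in 28. Both passed in 9, each time in the same direction, and in 24 the antisense RNA gene passed without its partner. The difference between the pair passed in 15, among them CAPN10-AS1, Z95115.1 and ALOX12-AS1, which are given with their values below. For comparison, 18.5% of all genes tested passed, and 16.7% of the 11224 tested against a partner. Where protein-coding genes and their partners both passed, 56 head-to-head cases moved the same way and 0 opposite ways. Among divergent cases these counts were 53 and 9. The 9 antisense pairs are described first, and since they were picked for passing in both genes their likeness is a description only. TFPI2, a Kunitz-type protease inhibitor, was at 30.1, 34.8 and 32.2 FPKM in DAB2IP O/E, against 78.6, 77.7 and 73.9 FPKM in empty vector (log2 change -1.22, limma adjusted p = 0.000108). AC002076.1 was at 0.633, 0.657 and 0.829 FPKM in DAB2IP O/E, against 2.00, 1.72 and 1.41 FPKM in empty vector (log2 change -0.66, limma adjusted p = 0.00638). The difference between the 2 genes on this scale was 0.56 (limma adjusted p = 0.0175). In limma-voom, which adds no pseudocount of 1 FPKM, AC002076.1 changed by -1.21 and TFPI2 by -1.23. RASSF8-AS1 fell by 0.46 (limma adjusted p = 0.00571) and RASSF8, a RAS-association domain protein, by 0.83 (limma adjusted p = 0.00123). AL731569.1 fell by 0.45 (limma adjusted p = 0.0166) and WAPL, which releases cohesin from chromatin, by 0.21 (limma adjusted p = 0.0474). AC016027.1 and PEX26, a peroxisome import factor, fell by 0.44 and 0.51, and AC008622.2 and SLC1A5, a glutamine transporter, by 0.37 and 0.32. AC008622.2 shares 63.5% of its exon bases with the opposite strand and AC016027.1 shares 30.7%. AL731569.1, AC016027.1 and AC008622.2 averaged 0.845, 0.956 and 0.764 FPKM in DAB2IP O/E, against 1.53, 1.64 and 1.29 FPKM in empty vector. MAFG-AS1 rose, at 2.47, 1.81 and 1.95 FPKM in DAB2IP O/E, against 1.00, 1.22 and 1.36 FPKM in empty vector (log2 change 0.48, limma adjusted p = 0.0204). MAFG, a small Maf transcription factor, was at 10.4, 10.4 and 11.1 FPKM in DAB2IP O/E, against 8.88, 8.53 and 9.47 FPKM in empty vector (log2 change 0.22, limma adjusted p = 0.0307). The median change of the 73 other tested protein-coding genes within 5 Mb of MAFG-AS1 was 0.24, close to that of MAFG. The MAFG-AS1 call was lost without DAB2IP O/E library 1 (adjusted p = 0.0587), DAB2IP O/E library 3 (adjusted p = 0.0613) or empty vector library 2 (adjusted p = 0.0591). AL731569.1 and AC008622.2 each missed the threshold whichever of the 3 DAB2IP O/E libraries was left out (limma adjusted p of 0.0503 to 0.0556 for AL731569.1 and 0.0742 to 0.0885 for AC008622.2). AC002076.1, RASSF8-AS1 and AC016027.1 passed whichever library was left out. The remaining 2 pairs rose, AC090152.1 with TOX and RHPN1-AS1 with RHPN1, and their antisense calls were lost when single libraries were left out. These were any DAB2IP O/E library for AC090152.1 (limma adjusted p of 0.0634 to 0.0870), and DAB2IP O/E library 1, DAB2IP O/E library 3 or empty vector library 2 for RHPN1-AS1 (limma adjusted p of 0.0526 to 0.0562).

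The other members with the largest rises were mostly low. AC012499.1 (chr2:177698429-177723289, plus strand), inside the phosphodiesterase gene PDE11A, was at 1.69, 1.54 and 2.20 FPKM in DAB2IP O/E, against 0.406, 0.489 and 0.857 FPKM in empty vector (log2 change 0.83, limma adjusted p = 0.0078). PDE11A, under 0.2 FPKM in every library, also had more signal in DAB2IP O/E (limma-voom log2 change 1.25, adjusted p = 0.0013). CA3-AS1 was at 2.21, 2.01 and 1.64 FPKM in DAB2IP O/E, against 1.36, 0.793 and 0.645 FPKM in empty vector (log2 change 0.63, limma adjusted p = 0.0259). PIK3CD-AS2 was at 6.58, 6.67 and 6.64 FPKM in DAB2IP O/E, against 4.48, 5.84 and 4.88 FPKM in empty vector (log2 change 0.34, limma adjusted p = 0.0319). It lies inside PIK3CD, a phosphoinositide kinase subunit, which rose by 0.44 (limma adjusted p = 0.0273). AC009005.1, AC093157.1, AC141930.1, AC010642.2, AL390198.1 and AP006284.1 rose by 0.25 to 0.58 (limma adjusted p of 0.0199 to 0.0449). None of these 6 calls held in every fit with 1 library left out. AC009005.1 was lost without empty vector library 1 (limma adjusted p = 0.0511) or 2 (limma adjusted p = 0.0652). AC141930.1 was lost whichever DAB2IP O/E library was left out (limma adjusted p of 0.0611 to 0.0877). AC093157.1 (limma adjusted p of 0.0563 to 0.138) and AC010642.2 (limma adjusted p of 0.0612 to 0.132) were lost whichever of the 6 libraries was left out. AL390198.1 was lost without DAB2IP O/E library 1 or 3 or empty vector library 2 (limma adjusted p of 0.0573 to 0.0730). AP006284.1 was lost without DAB2IP O/E library 1 or 3 or empty vector library 2 or 3 (limma adjusted p of 0.0845 to 0.134). AC010642.2 also missed the threshold with equal library medians (limma adjusted p = 0.0575) and AL390198.1 in limma-voom (adjusted p = 0.0616). With a filter of 0.2 FPKM, AC093157.1 (limma adjusted p = 0.0513), AP006284.1 (limma adjusted p = 0.0570) and AC010642.2 (limma adjusted p = 0.0531) missed it. CA3-AS1 lost its call whichever DAB2IP O/E library, or empty vector library 2, was left out (limma adjusted p of 0.0529 to 0.0902). PIK3CD-AS2 lost its call whichever DAB2IP O/E library, or empty vector library 1 or 3, was left out (limma adjusted p of 0.0610 to 0.102). AC012499.1 was below 1 FPKM and not tested without DAB2IP O/E library 3, and passed in the other 5 such fits. Of the 24 calls that passed in each of the 6 fits with 1 library left out, all 24 were lower and none was higher.

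Some large falls shared no exon base with an annotated opposite-strand gene. AC006329.1 (chr7:101308346-101310985, plus strand), near the intraflagellar transport gene IFT22 and with no gene body opposite, was at 6.55, 6.28 and 6.76 FPKM in DAB2IP O/E, against 11.7, 11.9 and 12.8 FPKM in empty vector (log2 change -0.80, limma adjusted p = 0.000341). The groups were tight and far apart. IFT22 changed by -0.03, and the difference of -0.77 passed (limma adjusted p = 0.00201). AC004888.1 was at 0.305, 0.190 and 0.290 FPKM in DAB2IP O/E, against 2.20, 1.91 and 1.87 FPKM in empty vector, on 6, 3 and 4 reads against 24, 23 and 29 reads (log2 change -1.24, limma adjusted p = 0.00031). It fell below 1 FPKM and was not tested when any empty vector library was left out. AC103591.3, inside the chaperone gene DNAJB4, was at 15.2, 12.4 and 17.7 FPKM in DAB2IP O/E, against 23.7, 29.9 and 25.1 FPKM in empty vector (log2 change -0.77, limma adjusted p = 0.00971). AC008610.1, which diverges from the kinase gene MAPK9, was at 1.06, 0.352 and 0.404 FPKM in DAB2IP O/E, against 2.17, 1.85 and 2.42 FPKM in empty vector. That was on 15, 4 and 4 reads against 17, 16 and 27 reads (log2 change -0.99, limma adjusted p = 0.00922). Its DAB2IP O/E mean was 0.606 FPKM, so it reached the 1 FPKM needed for testing through its empty vector level. CAPN10-AS1, named after its values were seen, starts 17 bases from the calpain gene CAPN10. It fell by 0.55 (limma adjusted p = 0.00292), while CAPN10 changed by 0.04 (adjusted p = 0.821). DLGAP1-AS2, inside DLGAP1, was at 2.73, 2.55 and 2.68 FPKM in DAB2IP O/E, against 6.50, 5.95 and 4.34 FPKM in empty vector (log2 change -0.84, limma adjusted p = 0.00548). The median of the 14 tested protein-coding genes within 5 Mb of it was -0.30. AC113194.1, inside RGS20, changed by -0.91 (limma adjusted p = 0.0342), on 1, 5 and 11 reads in DAB2IP O/E and 23, 14 and 19 in empty vector. It did not pass without DAB2IP O/E library 1 (adjusted p = 0.0933) or DAB2IP O/E library 2 (adjusted p = 0.0891). AC006329.1, AC103591.3, AC008610.1, CAPN10-AS1 and DLGAP1-AS2 passed whichever library was left out.

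**Figure D4:**
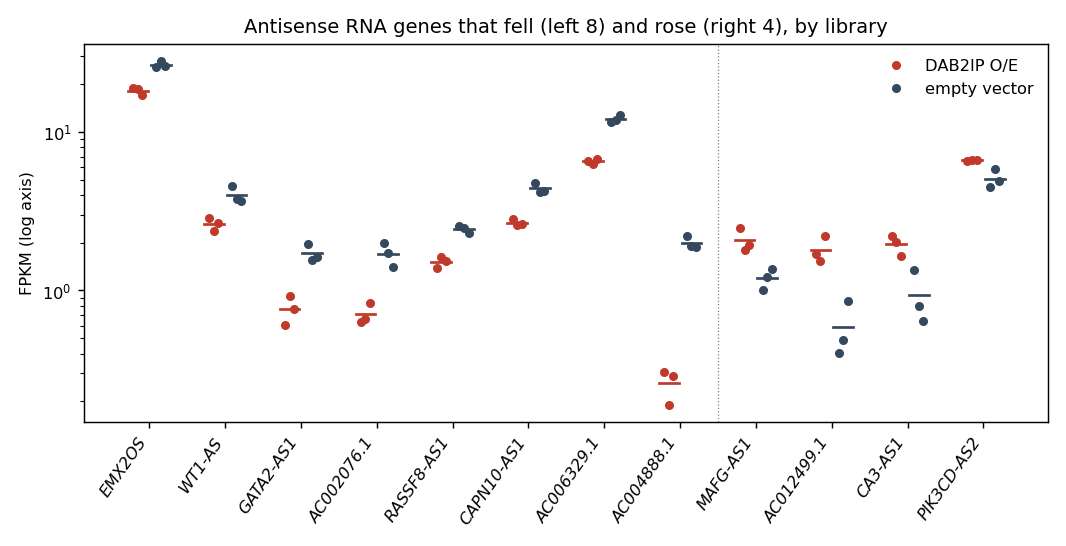
FPKM (log axis) of 8 antisense RNA genes that fell and 4 that rose, in each library, DAB2IP O/E left of empty vector, with the group mean as a line. Groups do not overlap for any of the 12, and AC004888.1 shows the widest gap, at 0.190 to 0.305 FPKM in DAB2IP O/E and 1.87 to 2.20 FPKM in empty vector.

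Other large falls lay in or beside exons of very abundant genes. AL138963.3, all of whose exon bases lie in TPT1 exons, was at 4.92, 4.77 and 2.36 FPKM in DAB2IP O/E, against 27.5, 20.0 and 6.36 FPKM in empty vector (log2 change -1.76, limma adjusted p = 0.0441). AC093484.4, likewise within UBB (ubiquitin), was at 2.29, 1.73 and 0.603 FPKM in DAB2IP O/E, against 5.44, 4.62 and 2.75 FPKM in empty vector (log2 change -1.08, limma adjusted p = 0.0425). AC010761.1, over the ribosomal protein gene RPL23A, changed by -1.27 (limma adjusted p = 0.0401). AC011603.2, with 80.2% of exon bases in exons of the tubulin gene TUBA1B, changed by -1.22 (limma adjusted p = 0.0498). SPON1-AS1, with 54.2% in the spondin gene SPON1, changed by -1.24 (limma adjusted p = 0.0236), and AC134772.1, with 48.6% in TMA7, by -1.12 (limma adjusted p = 0.0463). In all 6 the partner stood over 100 FPKM, its own change lay between -0.16 and 0.12 and did not pass, and the empty vector values were lowest in library 3. Each of the 6 calls was lost when any library other than empty vector library 3 was left out. The signal within partner exons given above (0.160% to 0.20% of the partners' reads in DAB2IP O/E, 0.214% to 0.524% in empty vector) moved the same way, and its part in these 6 falls was not tested.

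Antisense RNA genes and partners were compared in 342 pairs with both tested. In 26 (7.60%) both passed in the same direction and in 1 in opposite directions, against 446 (5.17%) and 61 of 8627 protein-coding genes with their own partners. Protein-coding genes that are each other's partner are counted there from both sides. The test of the change of a member minus that of its partner passed for 54 of 342 (15.8%), 12 higher and 42 lower, and for 16.7% of all 11224 genes so tested, 8.28% higher and 8.38% lower. The median difference was -0.11 over members and -0.00 over all. Mutual protein-coding partners enter this background in both directions, with opposite sign (737 higher and 741 lower among protein-coding genes). Its even split and its median are thus partly fixed by the pairing, and the direction of the members cannot be judged against them. This count too moved with single libraries. It was 29, 27 and 30 without DAB2IP O/E library 1, 2 and 3 in turn, and 30 without empty vector library 2. The fits without empty vector library 1 or 3 are not listed here. The highest count with 1 library left out lay above the 54 of the fit with all libraries.

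The likeness of the changes was set out by layout for those with over 50 pairs. Pearson's r between the member's and the partner's log2 change, a description over pairs from the same 6 libraries, was 0.47 in 107 head-to-head pairs, 0.29 in 51 divergent pairs, 0.33 in 96 with the member inside the partner and 0.15 in 60 tail-to-tail pairs. Protein-coding genes, with mutual partners counted from both sides, gave 0.43 head to head (n = 999 genes) and 0.28 when divergent (n = 1356). They gave 0.14 inside the partner (n = 167), 0.22 tail to tail (n = 1034) and 0.36 on the same strand (n = 3547). Head-to-head members counted 3 higher and 26 lower of 121 tested, divergent ones 2 and 13 of 52, members inside the partner 3 and 17 of 123, and tail-to-tail ones 4 and 10 of 79.

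The members with the lowest p against the partner included some that did not pass themselves beside a partner that rose. ARRDC1-AS1 was at 2.99, 2.99 and 3.19 FPKM in DAB2IP O/E, against 3.42, 3.23 and 3.8 FPKM in empty vector (log2 change -0.14, adjusted p = 0.174). Its partner ARRDC1, an arrestin-domain protein, rose by 0.43 (limma adjusted p = 0.00598), and the difference was -0.57 (limma adjusted p = 0.00278). AC005837.1 changed by -0.10 (adjusted p = 0.441) while MXRA7 rose by 0.47 (limma adjusted p = 0.00295), a difference of -0.57 (limma adjusted p = 0.00369). ALOX12-AS1 fell by 0.35 (limma adjusted p = 0.0156) beside RNASEK, which changed by 0.17 (adjusted p = 0.0713), a difference of -0.52 (limma adjusted p = 0.00397). ALOX12-AS1 alone did not pass without DAB2IP O/E library 3 (adjusted p = 0.0652) or empty vector library 2 (adjusted p = 0.0630). Z95115.1, AP001160.3 and MINCR each differed from their partners by -0.45 to -0.43, with neither gene of the pair passing alone.

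**Figure D5:**
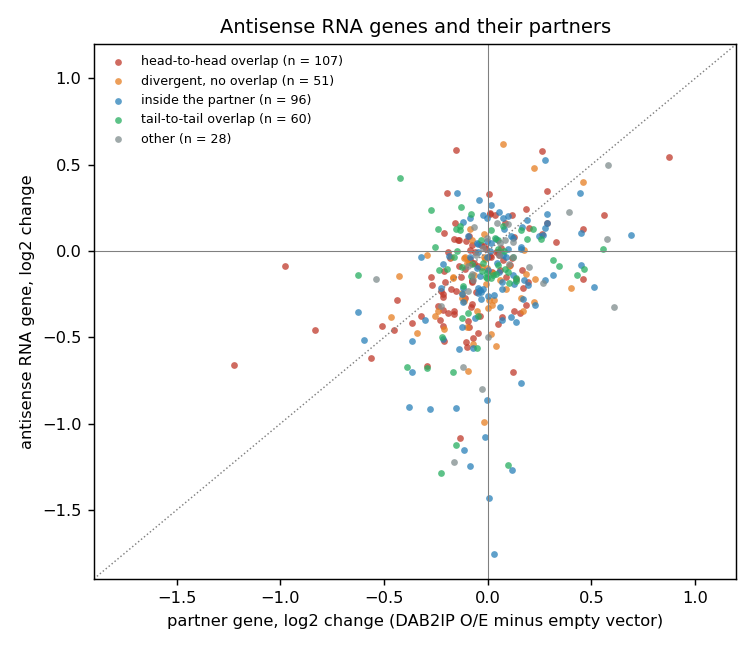
Log2 change (DAB2IP O/E minus empty vector, log2(FPKM + 1) scale) of 342 antisense RNA genes against that of their protein-coding partners, coloured by layout. The dotted line marks equal change, and more points lie below the horizontal zero line than above it, including a group of large falls beside partners near 0.

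The authors' deposited table gave an adjusted p to 1071 antisense RNA genes and put 120 of them (11.2%) under 0.05, 15 higher and 105 lower in DAB2IP O/E once its sign is turned. Of all 20272 genes with an adjusted p in the authors' deposited table, 19% were under 0.05. The limma-voom fit on recovered reads called 148 of 880 members, 26 higher and 122 lower, where 22.6% of all 19022 genes were called, 12.9% higher and 9.74% lower.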

How the data were processed

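Poly-A RNA of OVCAR3 cells was sequenced with a stranded kit, 3 libraries per vector, per the labels. The authors deposited FPKM per gene and library. Per the file headers, the authors' comparison table gives each gene a signal (its mean normalised count), a score (the test statistic), a log2 fold change and its standard error, and p-values before and after adjustment. The submitters' processing notes name, without roles, DESeq2 1.12.4, R 3.3.1, Bowtie, TopHat2 2.1.1 and Trimmomatic 0.32. No counting tool or strand setting is given in the sources used here. Set beside the FPKM of 8277 genes, the deposited fold change ran as empty vector over DAB2IP O/E and was turned. Of the 2193 antisense identifiers, 2095 had the same version and coordinates in GENCODE 29, whose exons were used for overlaps and whose build is GRCh38.

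Genes averaging at least 1 FPKM (14761) were tested with limma 3.58.1 in R 4.3.3 (trend, 2-sided) on log2(FPKM + 1), with Benjamini-Hochberg adjustment over all of them and a threshold of 0.05. The same test was run on gene minus partner for 11224 genes. To recover reads, FPKM were multiplied by the mean normalised count over mean FPKM. They were then divided by the smallest value above 0 in each library, taken as 1 read. The results came out whole within 0.001 for 100% of values. These reads were fitted with limma-voom as an alternative (mean of at least 10 reads), which called 4301 of 19022 genes. The main limma fit of single genes was tested on simulated data, with the same dispersion for every gene and larger changes than most given here. The limma-voom, partner and replicate-block fits were not tested in this way. Members named were the 12 largest falls and rises with separated groups, the 8 lowest p against the partner, the 6 highest levels and all listed members. The members and lists were chosen with earlier results of these data known. Promoters were matched by symbol in RefSeq for 378 of 2193 members. Other pseudocounts, filters, scalings, partner rules, a replicate term and left-out libraries were tried. Some items are not reported here.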

Additional observations from a re-analysis of the deposited data

How the results depend on the processing

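Antisense RNA genes lay mostly lower in DAB2IP O/E than in empty vector under every alternative run, and the number called moved. It was 85 of 410 (20.7%) in the main fit and 148 of 880 (16.8%) in limma-voom on recovered reads. Within the main fit it was 30 of 117 (25.6%) among members sharing no exon base. Among those with no gene body opposite, chosen after seeing the data, it was 16 of 50 (32%). With no filter 96 of 2193 members (4.38%) and 2360 of 27104 genes passed. With a filter of 0.2 FPKM these were 103 of 1234 members (8.35%) and 2658 of 20624 genes. With 1 library left out the number of members called was 36 to 91. Without empty vector libraries 1 and 2 it was 9, also chosen after seeing the data. That fit leaves a single empty vector library, assumed to vary like the DAB2IP O/E libraries, so its p-values show nothing of stability. The number of members tested against the partner also changed with the fit. It was 342 in the main fit, where 54 passed, 2193 with no filter, 1120 with a filter of 0.2 FPKM and 817 in limma-voom. In these 3 alternatives more members passed than in the main fit, but a smaller share of those tested. The count against the partner was 215 with no filter, 111 with a filter of 0.2 FPKM, 112 in limma-voom, 6 without empty vector libraries 1 and 2, and 27 to 63 with 1 library left out. Over all genes it was 4301 in limma-voom, 393 without those libraries, and 956 to 2731 with 1 left out. DAB2IP was lower, at -0.47 (limma adjusted p = 0.0672) with that single empty vector library and -0.46 to -0.38 with 1 left out. FGD5-AS1, which did not pass, changed by -0.10 to 0.00207 with 1 library left out, above 0 without DAB2IP O/E replicate 1. The cause was not tested. The median antisense change ran between -0.15 (pseudocount 0.1) and -0.04 (no filter). Of the 85 calls, equal library medians kept 82, limma-voom 77 and no filter 53.

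Libraries with the same replicate number correlated by 0.120, 0.0992 and 0.0576 in their deviations, each best with its own number, which is a hint from the data and not from the design. With the replicate block, 90 antisense RNA genes, 58 against the partner and 2393 of all genes passed, and DAB2IP had a limma adjusted p of 0.0171. At these depths most members, below 1 FPKM, could not be tested in FPKM.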
